A study of Mus musculus with 19 samples.

Results

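Transcripts of 41 interferon response genes were examined in RNA from mouse brain homogenate enriched for microglia, the resident macrophages of the brain. The members are genes whose transcription is known to be driven by interferon, and they were found by name in the mouse gene annotation. The list was chosen with earlier results of these data known, so its counts are a description. All 41 were found among the 49671 genes of the deposited table, and all 41 passed the filter on low values that left 23973 genes to test. The material came from 19 mice of the B6D2F1/J background, 1 library each. There were 8 HEM mice and 4 WT mice aged 13 months, and 4 HEM mice and 3 WT mice aged 3 months. HEM mice carry a full-length human wild-type transgene on the X chromosome, and WT mice do not. The murine Thy-1 promoter drives it, a promoter known in transgenic mice for expression in neurons, so the cells enriched here are not the main known site of the transgene.

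Interferons are secreted proteins that announce viral infection or misplaced nucleic acid. Type I interferons bind the receptor pair Ifnar1 and Ifnar2, which activates the kinases Jak1 and Tyk2 and assembles a transcription factor that holds Stat2 and Irf9. That factor binds a short DNA element, the interferon-stimulated response element (ISRE), beside the genes described here. Type II interferon, encoded by Ifng, acts at a second element, the gamma-activated site (GAS). In brain, an interferon-responsive state of microglia is known from infection, ageing and models of neurodegeneration.

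The control regions of the members were read first, since they show the element through which the genes are known to be linked. RefSeq promoter windows on GRCm38.p6, from 250 bases before to 50 bases after the start of transcription, were given for 31 of the 41 members. The ISRE core was searched on both strands as GAAA, any 2 bases and GAAA again, and 19 of the 31 members, or 61.3%, held it, against 3.99% of all 27025 genes with a window of that length. The GAS core, searched as TTCNNNGAA on both strands, was present in 6 of the 31, or 19.4%, against 9.55% of all genes. The ISRE and GAS cores overlap by a few bases in some windows, as at Bst2 and Ifitm3. A match is only a match of letters. Below are stretches around the ISRE cores of 8 members and, for the members with the smallest p in each direction at 13 months, stretches before the start of Slfn2 and Lgals3bp, whose windows had no match to the core. Capitals mark the core, which reads as TTTC at both ends where it lies on the other strand, and each stretch runs 5′ to 3′ in the direction of its gene.

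Isg15, chr4:156200850-156200921, minus strand: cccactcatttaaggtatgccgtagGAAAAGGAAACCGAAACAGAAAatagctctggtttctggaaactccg
Rsad2, chr12:26456538-26456597, minus strand: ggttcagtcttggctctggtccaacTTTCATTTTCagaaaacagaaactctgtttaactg
Oas3, chr5:120777700-120777759, minus strand: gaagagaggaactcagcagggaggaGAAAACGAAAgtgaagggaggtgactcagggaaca
Stat2, chr10:128270251-128270310, plus strand: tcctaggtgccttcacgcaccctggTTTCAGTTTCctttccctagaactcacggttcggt
Ifit1, chr19:34640760-34640838, plus strand: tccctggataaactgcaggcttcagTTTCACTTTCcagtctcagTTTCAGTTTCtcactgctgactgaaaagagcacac
Ifit3, chr19:34583348-34583441, plus strand: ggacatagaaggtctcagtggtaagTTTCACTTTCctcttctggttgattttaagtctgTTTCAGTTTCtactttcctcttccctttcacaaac
Ifit3b, chr19:34607744-34607837, plus strand: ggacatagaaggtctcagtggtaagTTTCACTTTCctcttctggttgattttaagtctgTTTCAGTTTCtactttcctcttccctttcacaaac
Gbp2, chr3:142620579-142620638, plus strand: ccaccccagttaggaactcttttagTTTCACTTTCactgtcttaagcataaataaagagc
Slfn2, chr11:83065012-83065111, plus strand: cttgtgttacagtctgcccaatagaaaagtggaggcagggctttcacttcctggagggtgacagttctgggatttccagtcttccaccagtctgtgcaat
Lgals3bp, chr11:118401960-118402059, minus strand: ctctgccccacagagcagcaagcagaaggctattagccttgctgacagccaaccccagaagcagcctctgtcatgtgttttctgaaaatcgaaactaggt

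Isg15 carried 3 overlapping cores in a single run. Ifit1 had 2 cores close together. Ifit3 and Ifit3b, neighbouring copies on chromosome 19, had identical stretches, and their windows shared a run of 169 identical bases. The members with and without a core had the same median difference between HEM and WT mice at 13 months on the log2 scale, 0.49 for 19 members and 0.49 for 12.

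**Figure D1:**
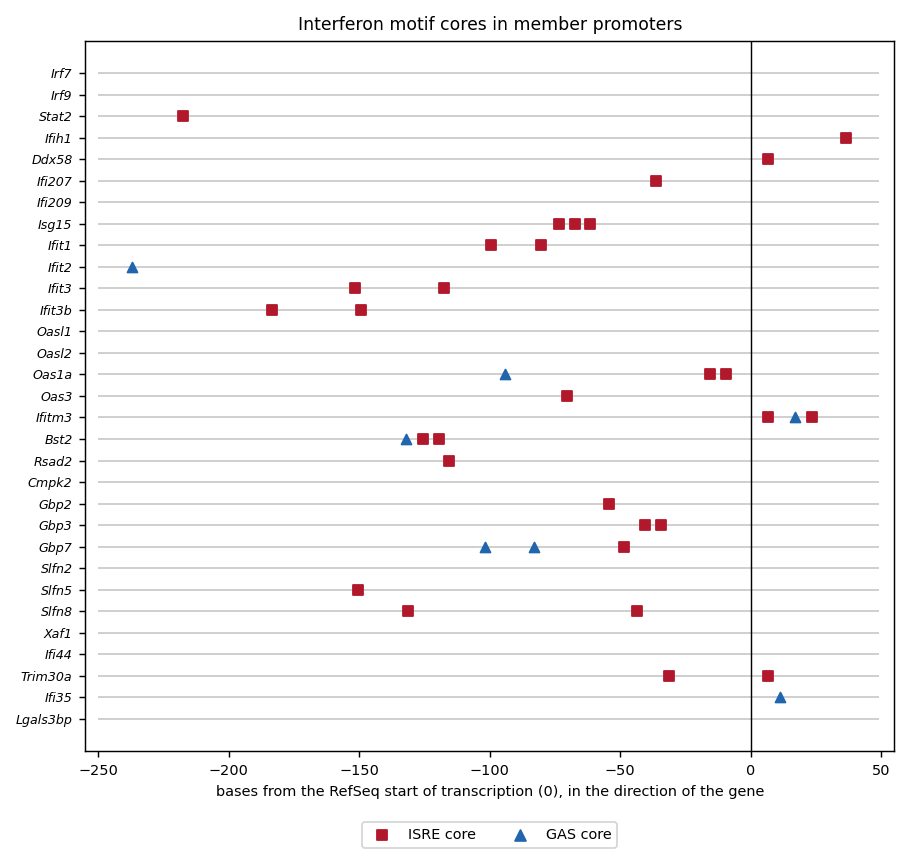
Positions of the ISRE core (squares) and the GAS core (triangles) in the promoter windows of the 31 members that had one. The x axis is the distance in bases from the RefSeq start of transcription, which is 0, and several windows of 1 gene share its row. ISRE cores stand in 19 rows and GAS cores in 6.

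Libraries held 63.3 to 95.8 M counted reads each for HEM and 93.2 to 124.5 M for WT mice at 13 months, and 74.7 to 112.9 M for HEM and 83.0 to 106.8 M for WT mice at 3 months. Values below are normalized counts, scaled by the authors with a single factor for each library, and levels between genes are compared only per kilobase of exon. All 8 microglia markers, such as P2ry12 and Tmem119, were present in every library, the lowest of their values being 5275 normalized counts. Markers of neutrophils, monocytes, erythroid cells and the choroid plexus were present in every library too. Mice HEM 1 and HEM 11 at 13 months and HEM 3 at 3 months stood apart on principal components 1 and 3 of all tested genes, at -130.4, -104.5 and -68.4, and results are given with and without them. Mouse HEM 13 of 13 months stood at 76.6 on component 2 and mouse WT 9 at 63.2 on component 1, nearly as far as HEM 3, and these mice were left out singly. In the gene whose promoter drives the transgene, Thy1, the mean was 11922 ± 11012 normalized counts in HEM and 4404 ± 2418 in WT mice at 13 months, and 27558 ± 15954 in HEM and 7429.5 ± 3796 in WT mice at 3 months (SD, n = 8, 4, 4 and 3). Thy1 is the mouse's own gene and does not check the transgene.

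Per kilobase, the members spanned a wide range of abundance. Ifitm3, a membrane protein that blocks viral fusion, was the highest with a mean of 14659.5 normalized counts per kb over the 19 mice, followed by Bst2, the tetherin that holds virions on the cell surface, with 8352, and Lgals3bp, a secreted galectin-binding glycoprotein, with 6731. Ifi27l2a at 3009.5 and Slfn2 at 2379 came next. The lowest were Ifi44 with 57.1, Oas3 with 117.4 and Oasl1 with 132.2 per kb. Against all tested genes, Ifitm3 stood at the 99.2nd percentile and Ifi44 at the 34.2nd.

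**Figure D2:**
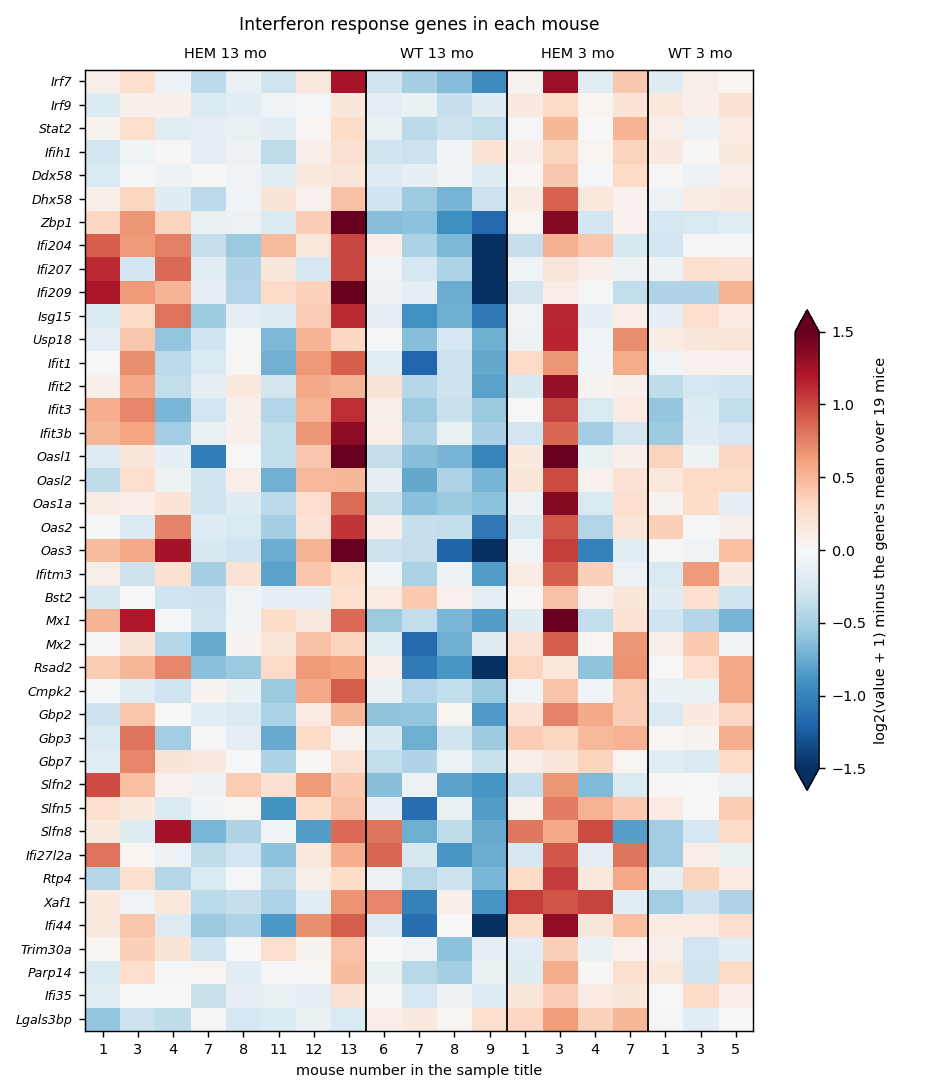
Level of each of the 41 members (rows, by role) in each of the 19 mice (columns, grouped as HEM and WT at 13 months, then HEM and WT at 3 months). Colour gives log2(value + 1) minus the mean of the gene over the 19 mice, and values beyond the ends of the scale take its end colours. WT mice at 13 months are mostly blue, and mouse HEM 13 at 13 months and mouse HEM 3 at 3 months are red in nearly every row.

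The main contrast asked how the transgene went with these transcripts at the later age. At 13 months 7 of the 41 members rose in HEM mice and 1 fell, by limma-trend with Benjamini-Hochberg adjustment over the 23973 tested genes and an adjusted p under 0.05. Of all tested genes 12.2% were called in this contrast, 4.87% higher and 7.3% lower. The difference was positive for 39 of the 41 members, with a median log2 fold change of 0.50 against 0.03 over all tested genes and a range from -0.40 to 1.46. At an unadjusted p under 0.05 there were 23 members and 5965 genes in all. The 8 genes called were placed on GRCm38. They are Ifi204 (chr1:173747293-173766943) and Ifi209 (chr1:173630917-173647928), Zbp1 (chr2:173206612-173218923), Isg15 (chr4:156199424-156200818), Rsad2 (chr12:26442746-26456452), and on chromosome 11 Slfn2 (chr11:83065112-83070678), Dhx58 (chr11:100694884-100704271) and Lgals3bp (chr11:118392751-118402092). Every HEM value lay above every WT value for 3 members, Slfn2, Zbp1 and Mx1, where 2.69% of all genes did so, and below for 1, Lgals3bp, where 3.98% did so. All fold changes were computed from log2(value + 1) and carry their standard errors.

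**Figure D3:**
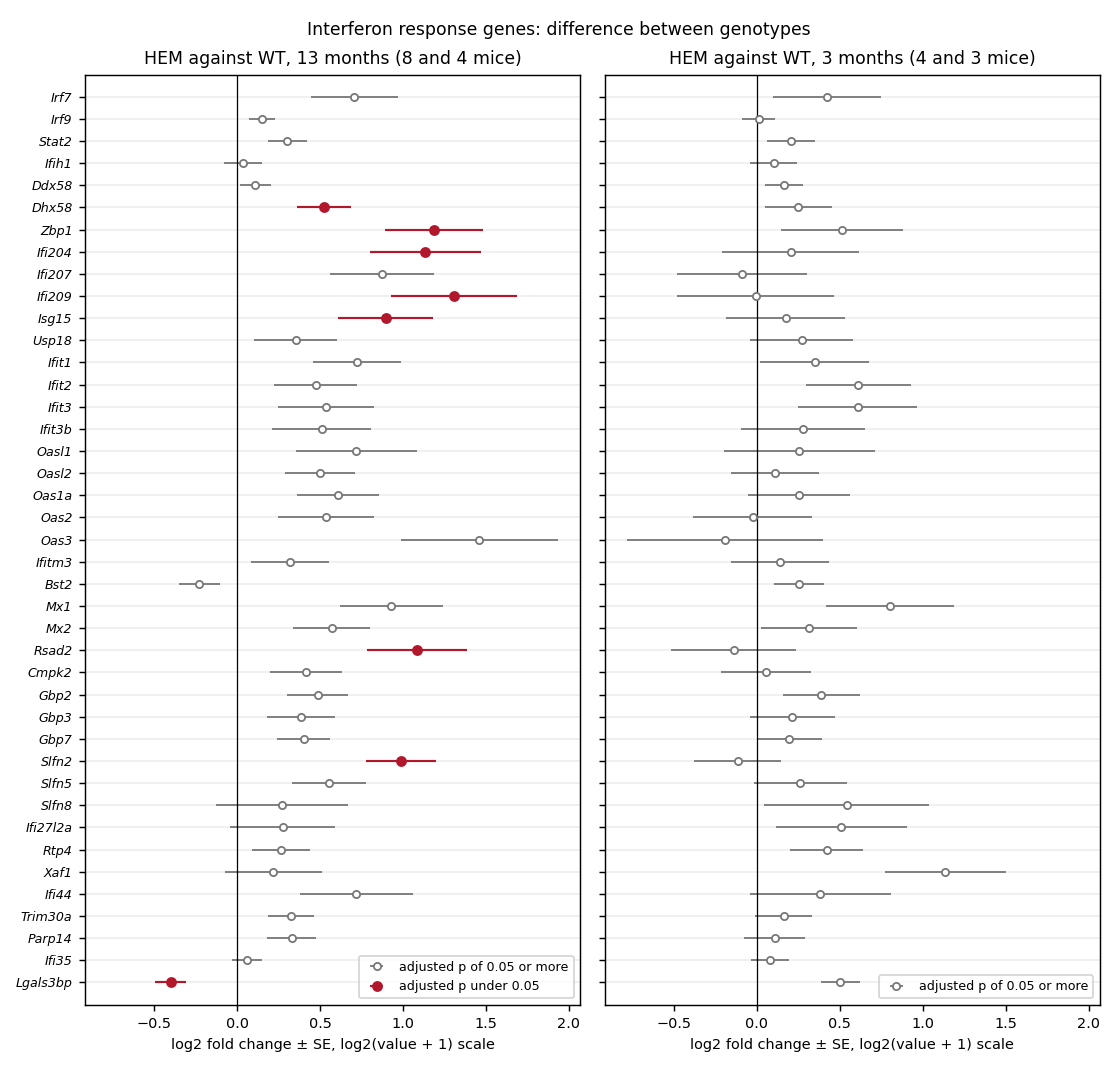
Log2 fold change of HEM against WT mice for each member, with its standard error, at 13 months (left, 8 and 4 mice) and at 3 months (right, 4 and 3 mice). Filled points passed an adjusted p of 0.05 in limma. At 13 months 39 of 41 points lie right of 0 and 8 passed, while at 3 months 35 lie right of 0 and 0 passed.

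The count moved when single mice were left out. Without mouse WT 9 it was 2, without WT 7 or without WT 8 it was 4, and without mouse HEM 13 it was 5. The calls among all genes moved too, from 2918 with every mouse to 1712, 1734, 1830 and 2589 in the same order. Leaving out mouse HEM 3 of 3 months, which shares in the estimate of spread, gave 12 members and 3020 genes. Slfn2 and Lgals3bp passed in all 19 fits that left out 1 mouse, and Zbp1 in 18, all but the one without WT 9. DESeq2 called 13 members and 4032 genes in all, edgeR 7 and 2898, and limma voom 8 and 3524. Without the 3 libraries that stand apart 14 members and 2502 genes in all passed, 5 of the 14 among the 8, since Ifi204, Ifi209 and Rsad2 no longer did, and the median was 0.55.

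Among the sensors of foreign nucleic acid, 4 of 7 rose. Zbp1, a sensor of Z-form nucleic acid that can trigger necroptosis, ranged from 670.4 to 2226 normalized counts in the 8 HEM mice with a median of 972, against 497, 509, 410.3 and 345 in the WT mice. The groups did not overlap, and the log2 fold change was 1.18 ± 0.29 (adjusted p = 0.0128). Ifi204 and Ifi209 belong to the AIM2-like receptors, a cluster of DNA-binding proteins on mouse chromosome 1. Ifi204 ranged from 668 to 1959 with a median of 1441 in HEM mice, against 1045, 702, 614 and 249 in WT mice. That is a difference of 1.13 ± 0.33 (adjusted p = 0.0309), with overlap at the low end of the HEM range. Ifi209 ranged from 1065 to 4614 with a median of 1946 in HEM mice, against 1361, 1307, 864 and 313 in WT mice, a difference of 1.31 ± 0.38 (adjusted p = 0.0292). Mouse WT 9 was the lowest of all mice for both genes. Of the 19 fits that left out 1 mouse, Ifi204 lost its call in 6, among them the one without WT 9. Ifi209 lost its call in 2 of them, without WT 8 and without WT 9, and also without the filter on low values. Dhx58, the RIG-I-like receptor LGP2, ranged from 889 to 1577 with a median of 1222 in HEM mice, against 949, 802, 721 and 929 in WT mice (0.52 ± 0.16, adjusted p = 0.0394). Dhx58 lost its call in 8 of the 19 fits that left out 1 mouse, and also without the filter on low values. Its exons overlap those of Dhx58os on the other strand over 4.31% of their length, and whether counting used strand is not given in the sources used here. The other RIG-I-like receptors, Ifih1 (MDA5) and Ddx58 (RIG-I), differed by 0.03 ± 0.12 and 0.11 ± 0.09 and did not pass. Ifi207 differed by 0.87 ± 0.31 (adjusted p = 0.0784). Transcripts of Ifi209 share 33.7% of their 50-base words with other genes, chiefly Ifi214, and those of Ifi204 share a smaller part, chiefly with Ifi211, so reads of these copies can be assigned uncertainly.

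Of the ISG15 system, which attaches a ubiquitin-like protein to others and removes it, the modifier itself rose. Isg15 ranged from 770.1 to 2422 with a median of 1186 in HEM mice, against 1028, 595, 673 and 533 in WT mice. All WT mice but WT 6 lay below every HEM mouse, and the difference was 0.90 ± 0.29 (adjusted p = 0.0471). This call stood close to the threshold and was kept in only 6 of the 19 fits that left out 1 mouse. Usp18, the protease that removes Isg15 and damps the receptor, differed by 0.35 ± 0.25 (adjusted p = 0.432).

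Rsad2, or viperin, which makes a nucleotide that stops viral RNA synthesis, rose as well. It ranged from 2118 to 5466 with a median of 4438 in HEM mice, against 3457, 1568, 1784 and 1166 in WT mice. HEM mice 7 and 8 lay within the WT range, and the difference was 1.08 ± 0.30 (adjusted p = 0.0229). Rsad2 kept its call in 16 of the 19 fits that left out 1 mouse. Its neighbour on chromosome 12, Cmpk2, a mitochondrial nucleotide kinase, differed by 0.42 ± 0.22. Mx1, from a family of dynamin-like GTPases, ranged from 756 to 2149 with a median of 1079 in HEM mice, against 640.4, 724, 579 and 524 in WT mice. Its groups did not overlap, though its adjusted p was 0.0564. Its paralogue Mx2 differed by 0.57 ± 0.23 (adjusted p = 0.127). Ifitm3 and Bst2, the most abundant of these antiviral proteins, differed by 0.32 ± 0.24 and -0.23 ± 0.12, and neither passed. Bst2 was the only member besides Lgals3bp with a negative difference, and it averaged 6931 ± 909 in HEM and 8124 ± 1239.8 in WT mice (SD, n = 8 and 4).

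In the Schlafen family, proteins that restrict growth and viral translation, Slfn2 rose. Slfn2 is known to hold T cells and monocytes in quiescence. Its values ranged from 3526 to 7351 normalized counts with a median of 4872 in HEM mice, against 2390.2, 3507, 2131 and 2013 in WT mice. The lowest HEM mouse was just above the highest WT mouse, and the difference was 0.99 ± 0.21 (adjusted p = 0.00564). Slfn5 and Slfn8 differed by 0.55 ± 0.22 and 0.27 ± 0.40 and did not pass.

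No member of 3 other families passed, though every one of their differences was positive. The 4 IFIT proteins, which bind viral RNA lacking host cap methylation, lay between 0.47 and 0.72 with Ifit1 the highest at 0.72 ± 0.26. Ifit1 ranged from 727 to 2224 with a median of 1202 in HEM mice, against 1066, 524, 958 and 703 in WT mice, with 2 of the 4 WT mice below every HEM mouse. The 5 genes of the OAS family, named for enzymes that make the activator of RNase L, lay between 0.50 and 1.46. Oas3 had the largest difference of all members, 1.46 ± 0.47, and the most spread, from 397 to 3140.2 with a median of 937 in HEM mice, against 537, 526.4, 291 and 154 in WT mice (adjusted p = 0.0509). The 3 guanylate-binding proteins, which coat the vacuoles of intracellular pathogens, lay between 0.39 and 0.49. Ifit3 and Ifit3b share 51.2% and 45.0% of their 50-base words, mostly with each other, and Oas1a shares 57.6% with other genes, chiefly Oas1g.

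The 3 regulators of transcription were positive and did not pass. Irf7, which amplifies the production of type I interferon, ranged from 2055 to 6383 with a median of 2707 in HEM mice, against 2201, 1909, 1719 and 1402 in WT mice (0.71 ± 0.26, adjusted p = 0.0885). The top value was that of mouse HEM 13. Stat2 differed by 0.30 ± 0.12 and Irf9 by 0.15 ± 0.08.

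Lgals3bp was the member that fell. It ranged from 12391 to 18291 with a median of 15783 in HEM mice, against 20041, 20644, 19106 and 22482 in WT mice. The groups were separate, and the difference was -0.40 ± 0.09 (adjusted p = 0.00904). Of the other 7 members in its group, Ifi44 differed by 0.72 ± 0.34, Trim30a by 0.33 ± 0.14, Parp14 by 0.33 ± 0.15, Ifi27l2a by 0.27 ± 0.32, Rtp4 by 0.26 ± 0.18, Xaf1 by 0.22 ± 0.29 and Ifi35 by 0.06 ± 0.09. None of these 7 passed.

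**Figure D4:**
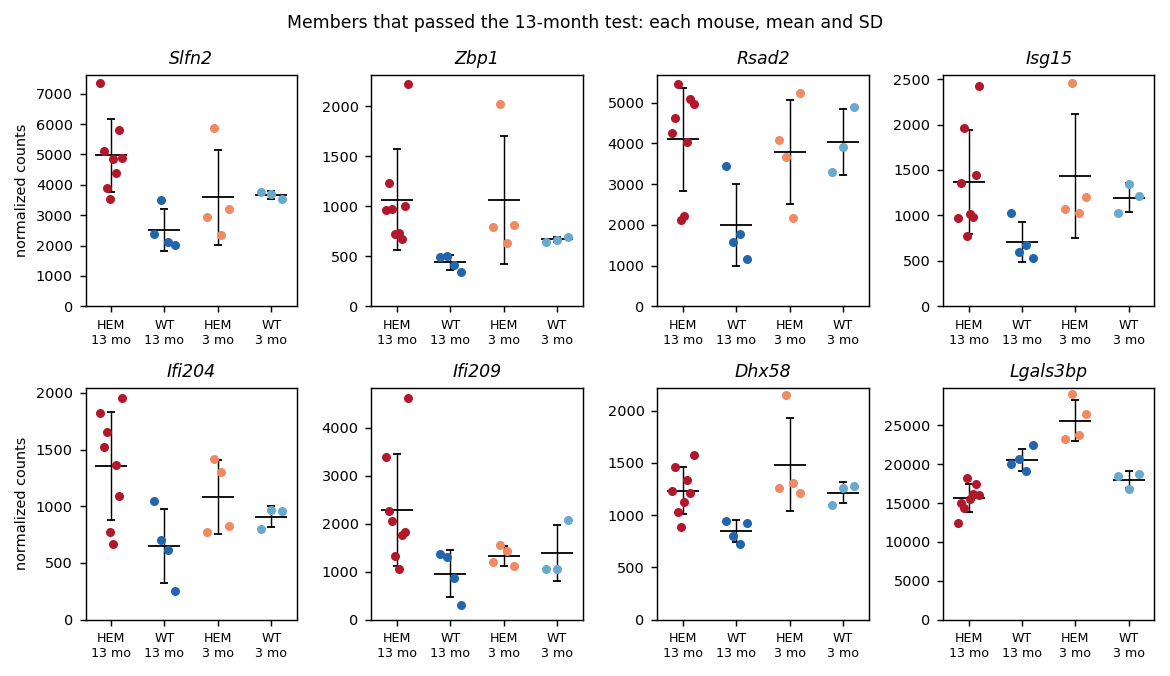
Normalized counts of the 8 members that passed at 13 months, in each mouse (points), with the mean and SD of each group (lines), for HEM and WT at 13 months and HEM and WT at 3 months, left to right. For 7 of them the HEM mice at 13 months lie mostly above the WT mice of that age, while for Lgals3bp all 8 lie below all 4.

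At 3 months the question was whether these transcripts differed in young adults. By limma 0 of the 41 members passed, as did 0% of all tested genes, and edgeR, DESeq2 and limma voom also called 0 members. At an unadjusted p under 0.05 there were 2 members and 924 genes in all. The difference was positive for 35 of 41 members, with a median of 0.25 against 0.01 over all genes and a range from -0.19 to 1.13. Without mouse HEM 3, whose values were above its group's mean in 40 of 41 members, the median was 0.06. Every HEM value lay above every WT value for 3 members, Ifit2, Xaf1 and Lgals3bp, where 3.08% of all genes did so, and 0 members lay wholly below, where 2.78% did so.

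Lgals3bp at 3 months measured 23223, 28997, 23775 and 26497 normalized counts in HEM mice, against 18439, 16818 and 18802 in WT mice. The groups were separate in the direction opposite to that at 13 months (0.50 ± 0.12), and the adjusted p did not pass. Xaf1, which antagonises the inhibitor of apoptosis XIAP, had the largest difference of that age, 1.13 ± 0.36, which did not pass either. It measured 4604, 4317, 4533 and 2000.2 in HEM mice, against 1566, 1803 and 1643 in WT mice. HEM mouse 7 was the one HEM value close to the WT values. Mx1 measured 822, 2911, 722 and 1082 in HEM mice, against 758, 686 and 577 in WT mice (0.80 ± 0.38), and the groups overlapped.

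For the 7 members that rose at 13 months, the differences at 3 months ran from -0.14 ± 0.37 for Rsad2 to 0.51 ± 0.37 for Zbp1. Zbp1 measured 797, 2020.4, 637 and 809 in HEM mice, against 645, 664 and 698 in WT mice. Mouse HEM 3 alone stood far above the others. Slfn2 measured 2937, 5879.8, 2352 and 3218 in HEM mice, against 3765, 3707 and 3517 in WT mice, with 3 of the 4 HEM mice below all WT mice (-0.11 ± 0.26). Isg15 measured 1071, 2451, 1023 and 1199 in HEM mice, against 1023, 1344 and 1217 in WT mice (0.17 ± 0.36), and only mouse HEM 3 exceeded the WT values. The sign at 3 months turned positive for Slfn2 and Rsad2 without mouse HEM 4, with values of 0.06 and 0.11, and for Rsad2 without WT 5, with 0.01.

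The difference between the genotype effects at the 2 ages was tested directly, and 0 members passed in limma, as did 0% of all genes. At an unadjusted p under 0.05 there were 6 members and 3551 genes. The median over the members was 0.22. Lgals3bp came closest, with the effect at 13 months below that at 3 months (-0.90 ± 0.15, adjusted p = 0.0742). It passed in 3 of the 19 fits that left out 1 mouse, in DESeq2 and in limma voom. Slfn2 had 1.10 ± 0.34 (adjusted p = 0.137) and passed in limma voom, and edgeR called 0 members.

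The ages were compared within each genotype. In WT mice 0 of 41 members passed between 13 and 3 months in limma, where 0.709% of all genes passed, 0.463% higher and 0.246% lower, and edgeR also called 0. DESeq2 and limma voom each called 1, Irf9. At an unadjusted p under 0.05 there were 13 members and 3714 genes. The difference was negative for 36 of 41, with a median of -0.55 against -0.01 over all genes. For 17 members every WT mouse at 13 months lay below every WT mouse at 3 months, where 6.46% of all genes did so, and for 1, Lgals3bp, all lay above, where 8.83% did so. These comparisons share the WT mice of 13 months with the genotype contrast of that age.

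Irf9, the DNA-binding part of the complex with Stat2, measured 4774, 4909, 4164 and 4650.1 in WT mice at 13 months, against 5868, 5564 and 6194 at 3 months. The ages did not overlap (-0.35 ± 0.10, adjusted p = 0.0905). Oasl2 measured 2579, 1646, 2034 and 1726 at 13 months, against 3146, 3469.6 and 3424 at 3 months (-0.77 ± 0.26, adjusted p = 0.150). Rsad2 measured 3457, 1568, 1784 and 1166 at 13 months, against 3298, 3902 and 4892 at 3 months (-1.12 ± 0.37, adjusted p = 0.139). Its one overlapping mouse was WT 6, without which it passed with an adjusted p of 0.0460. Zbp1 in WT mice at 13 months, given above, lay wholly below the 645 to 698 of 3 months.

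In HEM mice 1 of the 41 members passed between 13 and 3 months, Lgals3bp, and it fell, where 0.684% of all genes were called lower and 1.62% in either direction. It ranged from 12391 to 18291 at 13 months, against 23223 to 28997 at 3 months, a difference of -0.71 ± 0.09 (adjusted p = 0.00308). It passed in all 19 fits that left out 1 mouse and in 13 of 15 other alternatives. With the neutrophil and erythroid level in the fit it stood at -0.68 and did not pass, where 0 of all genes did, and with the replicate block it stood at -0.78 and did not pass, where 1 of all genes did. Between ages in HEM mice the median difference of the 12 neutrophil markers was 1.64 with 0 called. Called higher were 2 of 8 erythroid, 1 of 5 astrocyte and 1 of 6 B cell markers. Called lower were 1 of 6 endothelial and 1 of 6 choroid plexus markers. The difference was negative for 32 of 41 members, with a median of -0.25. That median was -0.07 without mouse HEM 3 of 3 months and 0.01 without the 3 libraries that stand apart. Only Lgals3bp was wholly lower at 13 months, where 1.36% of all genes were, and 0 members were wholly higher, where 1.44% were. Rtp4, a chaperone of receptor transport, differed by -0.63 ± 0.18 (adjusted p = 0.0729), and DESeq2 called it. Among the positive differences, Slfn2, Ifi209 and Oas3 had the smallest p. Over the 19 fits that left out 1 mouse they ran from 0.35 to 0.79, 0.49 to 0.79 and 0.20 to 0.88, and none passed. Limma voom called 1 member higher and 2 lower, beside 813 and 653 of all genes.

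By group mean, WT mice at 13 months were the lowest of the 4 groups for 36 of 41 members, as they were for 32.3% of all tested genes. HEM mice at 3 months were the highest for 31 of 41, and for 23.6% of all genes. Averaged over the 41 members, the log2 level was 11.02 ± 0.32 in HEM and 10.49 ± 0.28 in WT mice at 13 months, and 11.19 ± 0.35 in HEM and 10.93 ± 0.09 in WT mice at 3 months (SD, n = 8, 4, 4 and 3). In the 3-month HEM group mouse HEM 3 stood at 11.71, against 10.99, 10.95 and 11.12 in HEM 1, HEM 4 and HEM 7. The ranking of the groups was not recomputed without HEM 3. Mice of a group differed in how many members lay above the group's mean. Mouse HEM 13 was above the 13-month HEM mean in 41 of 41 members, while HEM 7 and HEM 11 were above it in 5 and 6, and HEM 1 and HEM 4 in 18 and 16. Mouse WT 6 was above the 13-month WT mean in 35 members, WT 8 in 21, WT 7 in 16 and WT 9 in 7. No share over all genes was computed for these counts.

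The members' levels at 13 months moved beside markers of other cells. In bulk RNA, more cells of a type and more RNA per cell cannot be told apart. All 12 neutrophil markers were called higher in HEM mice, with a mean log2 level of 13.64 ± 1.10 in HEM and 11.26 ± 0.68 in WT mice, and a summed level of 68023 to 585568 normalized counts in HEM and 41223 to 109859 in WT mice. Of 8 monocyte markers 5 were called higher (12.52 ± 0.54 in HEM and 11.25 ± 0.30 in WT), of 8 erythroid markers 3 (14.13 ± 0.43 and 12.72 ± 0.64, HEM and WT), and of 10 T and NK cell markers 5 (9.98 ± 0.50 and 8.78 ± 0.61, HEM and WT). All 10 immediate early genes, which also mark stress of dissociation, were higher, at 15.17 ± 0.57 in HEM and 13.02 ± 1.10 in WT mice. Of 6 choroid plexus markers 5 were called lower, with differences of all 6 from -1.12 to -0.72. Their mean log2 level was 14.88 ± 0.32 in HEM and 15.81 ± 0.14 in WT mice. None of the 8 microglia markers passed, and 0 of the 8 markers of plasmacytoid dendritic cells did, a list that holds Bst2. No marker of these lists was at 0 in any library. At 3 months 0 markers of these lists passed between HEM and WT mice. In WT mice 6 of the 10 immediate early genes were called lower at 13 than at 3 months. The differences of all 10 ran from -3.52 to -1.70. Their mean log2 level was 13.02 ± 1.10 at 13 months and 15.36 ± 0.42 at 3 months, beside the members' levels there. With the immediate early level in the fit the members' median between ages in WT mice was -0.84. The part of the T and NK cell and choroid plexus levels in these results was not tested.

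The genotype contrast at 13 months was also fitted with a marker level as a covariate. With the neutrophil and erythroid level the members' median was 0.14, with the monocyte level 0.06, and with the immediate early level 0.83. In each of these fits 0 members passed, and so did 0 of all genes. With the neutrophil and erythroid level, the 8 members called without it stood at 0.64 for Zbp1, 0.62 for Ifi204, 0.54 for Slfn2, 0.51 for Ifi209, 0.36 for Dhx58, 0.30 for Rsad2, 0.19 for Isg15 and -0.35 for Lgals3bp.

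**Figure D5:**
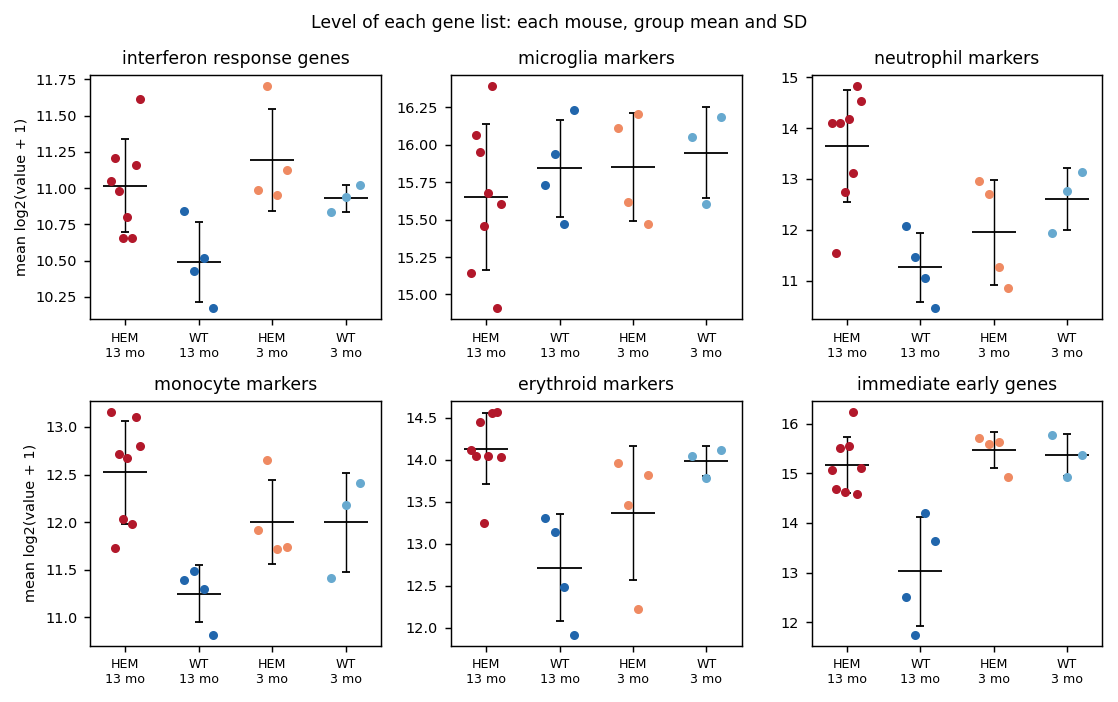
Mean log2(value + 1) of the 41 members and of 5 marker lists in each mouse (points), with the mean and SD of each group (lines), HEM before WT at 13 months and then at 3 months. The axes do not start at 0. The neutrophil, monocyte and immediate early levels are lowest in WT mice at 13 months, as is the level of the interferon response genes, while the microglia level overlaps in all groups.

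The rest of the pathway was read in gene lists. Of 21 interferon genes only Ifng passed the filter on low values. Ifng, made chiefly by T and NK cells, ranged from 98.8 to 639 with a median of 203 in HEM mice at 13 months, against 58.8, 109, 53.5 and 64.7 in WT mice, and rose by 1.62 ± 0.39 (adjusted p = 0.0103). Ifnb1 was near or at 0 throughout, with at most 21.9 normalized counts in HEM and 3.01 in WT mice at 13 months, and Ifna1 was at 0 in every library.

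Of 6 receptor genes 0 passed at 13 months. Ifnar1 averaged 9937 ± 1107 in HEM and 8434 ± 1141 in WT mice (0.24 ± 0.11, adjusted p = 0.160), and Ifnar2 averaged 8805 ± 1330.0 and 8269 ± 1272 in HEM and WT mice (0.09 ± 0.11, adjusted p = 0.709). Downstream of the receptors, Irf1 and Jak2 rose. Irf1, an early transcription factor of the interferon response, ranged from 5614 to 10655 with a median of 7491 in HEM mice, against 4207, 4335, 4547 and 4459 in WT mice (0.78 ± 0.14, adjusted p = 0.00265). The kinase gene Jak2 rose by 0.27 ± 0.08 (adjusted p = 0.0380). Of 12 adaptors and kinases downstream of the sensors 1 rose, where 4.87% of all tested genes were called higher. That gene was Ikbke, which rose by 0.81 ± 0.17 (adjusted p = 0.00554).

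Among 11 tested negative regulators 4 rose and 1 fell, where 4.87% of all tested genes were called higher and 7.3% lower. Socs3, which blocks receptor-bound Jak kinases and also answers to interleukin-6, ranged from 16695 to 44589 with a median of 21113 in HEM mice, against 5282, 2998, 11543 and 7963 in WT mice. Its groups did not overlap (1.97 ± 0.34, adjusted p = 0.00237). Socs1 rose by 0.93 ± 0.19 and Samhd1, an enzyme that hydrolyses nucleotides, by 0.52 ± 0.11. The phosphatase gene Ptpn11 fell by 0.34 on the log2 scale (adjusted p = 0.0419). Rnf125, a ubiquitin ligase for RIG-I, rose by 1.05 ± 0.32. Of 56 tested interferon-stimulated genes outside the 41, 10 rose and 1 fell, with a median of 0.40. Samd9l rose by 0.77 ± 0.16, Slfn1 by 1.37 ± 0.31 and Sp100 by 0.72 ± 0.16, while Ifi27 fell by 0.60 on the log2 scale (adjusted p = 0.00311). At 3 months 0 genes of these 6 lists passed.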

How the data were processed

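RNA from brain homogenate enriched for microglia was sequenced from 19 mice, and the labels gave each mouse its genotype and age. The submitters' processing notes name Trimmomatic, HISAT2, featureCounts, DESeq2 and the mm10 build, while the annotation and strand setting of the counting are not given in the sources used here. The deposited values are a normalized signal, gene counts that the authors divided by 1 size factor per library, since every value was a whole multiple of its library's step within a tolerance of 0.01 (100.0% in each library). Whole reads were recovered from these steps for edgeR 4.0.16, DESeq2 1.42.0 and limma voom as alternatives. Symbols from GENCODE matched 49412 identifiers.

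The main test was limma-trend 3.58.1 in R 4.3.3 with robust variance on log2(value + 1), all 19 mice in 1 fit, keeping genes that reached 10 in 3 or more libraries. Calls needed an adjusted p under 0.05 (Benjamini-Hochberg over the 23973 tested genes), in 5 comparisons. Every member called in any comparison was named with its values there. The 3 members with the smallest p per direction were listed for naming as well, and some are not given in every comparison. The steps were tested on simulated data. The members and lists were chosen with earlier results of these data known. The transgene's own product and part of the signalling list are not reported here. Alternatives were other tools, scalings, pseudocounts and filters, thinned reads, marker covariates, a replicate block and leaving out mice.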

Additional observations from a re-analysis of the deposited data

Results flagged for a closer look

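In 126 tests for 1 mouse far from the rest of its group, 6 values passed the limit. A limit of 1 in 20 groups gives about that number in independent tests. These tests share the same mice, so they are not independent and the comparison decides nothing. Mouse HEM 3 of 3 months held 4 of the 6, each as the highest of its group. It had 2148 normalized counts of Dhx58, with 1304 in the next mouse, and 1561 of Ifit3b, with 708 in the next. It also had 949.9 of Oasl1, with 337 in the next, and 5541 of Oasl2, with 3257 in the next. Irf7 in mouse HEM 13 of 13 months was 6383, with 3233 in the next mouse. Xaf1 in mouse HEM 7 of 3 months was the lowest of its group at 2000.2, with 4317 in the next.

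For Lgals3bp every HEM mouse lay below every WT mouse at 13 months and above every WT mouse at 3 months. The genotype effect at 13 months minus that at 3 months was -0.90 on the log2 scale, with an adjusted p of 0.0742 in limma.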

How the results depend on the processing

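Numbers of members called and medians were recomputed under 19 fits that left out 1 mouse and 15 other alternatives. Leaving out 1 mouse gave 2 to 12 called between HEM and WT mice at 13 months (median 0.39 to 0.63), 0 at 3 months (0.06 to 0.31), 0 to 1 between ages in WT (-0.59 to -0.39), 1 to 2 in HEM (-0.30 to -0.07) and 0 to 1 for the difference of effects (0.15 to 0.40). The 1 in WT came without WT 6, beside 524 of all genes, and the 2 in HEM without HEM 3 of 13 months, beside 648. For the difference of effects 1 passed without HEM 1, HEM 7 or WT 6 of 13 months, beside 2, 315 and 287 of all genes. DESeq2 called 13, 0, 1, 2 and 1 in the same order of comparisons, beside 4032, 6, 1217, 1308 and 938 of all genes, and limma voom called 8, 0, 1, 3 and 2, beside 3524, 0, 1255, 1466 and 794. Without a filter 5 passed at 13 months, beside 2227 of 41090 genes. Without the 3 libraries that stand apart 14 did, beside 2502 of all genes. With the neutrophil and erythroid level, the monocyte level or the immediate early level in the fit, 0 members and 0 of all genes passed at 13 months. The members' medians at 13 months were 0.14, 0.064 and 0.83 in these fits. The medians between ages in WT were then -0.27, -0.24 and -0.84. The median of the difference of effects was -0.15 with the neutrophil and erythroid level and -0.15 with the monocyte level. In HEM 0 members and 0 of all genes passed between ages with the neutrophil and erythroid level. The causes were not tested.

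Mouse numbers were not used to pair the samples in the main fit. Same-number correlations of deviations were 0.107 for number 7 and 0.126 for number 8 at 13 months, and 0.021 and -0.038 at 3 months. Between ages in HEM they were -0.068 to 0.173. Number 7 at 13 months and numbers 4 and 7 between ages in HEM correlated best with their own number, and the others did not. With the replicate block 0 members passed at 13 months, as did 0 of all genes. Between ages in HEM 0 members passed with it, where 1 of all genes did. The medians with that block were -0.15 between ages in WT and -0.084 for the difference of effects.

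Of the alternatives for named members, 1011 kept direction and side of the threshold, 78 lost and 12 gained the call, and 15 turned sign. These cover 33 named results. Only the 8 called at 13 months and the 1 called between ages in HEM could lose a call. The 1011 therefore include results that were called in neither fit, and are no measure of how stable the calls were. At 3 months the sign turned with the neutrophil and erythroid level for Oas3 (0.23), Rsad2 (0.11) and Slfn2 (0.030), with the replicate block for Oas3 (0.22), Rsad2 (0.18) and Slfn2 (0.15), without mouse HEM 4 for Oas3 (0.13), Rsad2 (0.11) and Slfn2 (0.060), and without WT 5 for Rsad2 (0.0092). Over the fits that left out 1 mouse the differences at 3 months ran from -0.55 to 0.13 for Oas3, -0.32 to 0.11 for Rsad2 and -0.38 to 0.060 for Slfn2. With the neutrophil and erythroid level Oas3 turned to -0.36 between ages in HEM and -0.11 for the difference of effects. With the immediate early level Bst2 turned to 0.018 at 13 months and -0.076 between ages in WT. Xaf1 turned to -0.18 between ages in WT without WT 6. The cause was not tested. With every library thinned to 60 M reads, 8 members passed at 13 months, beside 2937 of all genes.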
